A study of Mus musculus with 95 samples.

Results

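The 8 genes described here encode the surface proteins that are used to sort mouse blood stem cells and multipotent progenitors: Slamf1, Cd48, Cd244, Kit, Ly6a, Cd34, Procr and Cd27. They were taken by name from the 53465 genes of the raw count table, and all 8 were found. Their transcripts were followed in 95 bulk RNA-seq libraries of 3 sorted bone marrow populations, the haematopoietic stem cells (HSC) and the haematopoietic progenitor populations HPC-2 and HPC-1. After transplant, each population was sampled in 3 periods, weeks 3 and 4, weeks 5, 6 and 8, and weeks 10, 13 and 16, with 3 libraries per week and thus 24 per population. At steady state, in untreated mice, there were 8 libraries of HSC, 7 of HPC-2 and 8 of HPC-1. Per the labels, all mice were of the B6.SJL strain and 8 to 12 weeks old, and the transplanted cells came from recipients that had been given 900 cGy of irradiation and 8000 LSK cells (lineage-negative cells positive for KIT and SCA-1). The labels do not say whether the strain and the age are those of donor or recipient, nor whether cells of the recipient were kept out of the sort. For 1 HPC-2 library its title gave 3 weeks while its treatment label read untreated, and the title was followed.

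The sort gate is written identically for every library in the labels: live marrow cells enriched for KIT, negative for CD3e, B220, GR-1, CD11b and TER119, positive for KIT and SCA-1, negative for CD48 and positive for CD150. CD150 is the product of Slamf1, KIT that of Kit and SCA-1 that of Ly6a. By the usual definition, HPC-1 cells are CD48-positive and CD150-negative and HPC-2 cells are positive for both proteins, so that Cd48 and Slamf1 are the transcripts of the proteins that set the populations apart, and a difference in them checks the sort.

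SLAMF1, CD48 and CD244 belong to the signalling lymphocyte activation molecule (SLAM) family, receptors of the immunoglobulin superfamily on blood cells. SLAMF1 binds itself on a neighbouring cell, CD244 binds CD48, and the tails of SLAMF1 and CD244 pass signals through small SH2 adaptors, while CD48 is anchored to the membrane by glycosylphosphatidylinositol. KIT is the receptor tyrosine kinase for stem cell factor and is needed for stem cell maintenance, and SCA-1 is a small protein with the same kind of anchor. CD34 is a sialomucin that most adult mouse stem cells carry little of, PROCR (EPCR) is the receptor of activated protein C and is abundant on stem cells, and CD27 is a receptor of the tumour necrosis factor family that binds CD70.

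On GRCm38, with GENCODE M21 gene models, Cd244 (chromosome 1, 171559193 to 171609746), Cd48 (chromosome 1, 171682009 to 171705258) and Slamf1 (chromosome 1, 171767127 to 171801184) lie on the + strand within 241992 bases, with Slamf7, on the - strand, between Cd244 and Cd48. Cd34 is farther along the same chromosome (194938819 to 194961279, + strand), Procr is on chromosome 2 (155751117 to 155755471, + strand), Kit on chromosome 5 (75574916 to 75656722, + strand), Cd27 on chromosome 6 (125232622 to 125237010, - strand) and Ly6a on chromosome 15 (74994877 to 74998031, - strand). Ly9, another SLAM receptor gene, lies within Cd244 on the opposite strand. Their exons share 0 bases, but the strand setting of the counting was not given in the sources used here. Ly6a belongs to a family of near-identical neighbours, so its counts are uncertain where reads could be shared.

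The 3 SLAM neighbours had 3 different patterns over the populations, so the 250 bases before their RefSeq start sites (GRCm38.p6, 5′ to 3′ on the gene's strand) are shown first. Capitals mark hexamers searched on both strands: AGGAAG, recognised by ETS factors, TGTGGT, recognised by RUNX factors, and AGATAA, recognised by GATA factors.
Slamf1 promoter (chr1:171766882-171767131, + strand): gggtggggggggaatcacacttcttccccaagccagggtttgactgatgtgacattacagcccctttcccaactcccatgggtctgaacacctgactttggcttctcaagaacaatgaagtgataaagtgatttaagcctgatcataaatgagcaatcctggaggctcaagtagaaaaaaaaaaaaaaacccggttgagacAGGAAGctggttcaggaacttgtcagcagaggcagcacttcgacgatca
Cd48 promoter (chr1:171681742-171681991, + strand): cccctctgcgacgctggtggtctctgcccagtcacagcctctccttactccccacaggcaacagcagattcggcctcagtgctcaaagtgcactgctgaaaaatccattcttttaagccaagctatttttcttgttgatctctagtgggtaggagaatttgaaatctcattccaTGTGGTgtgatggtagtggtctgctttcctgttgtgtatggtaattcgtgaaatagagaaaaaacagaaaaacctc
Cd244 promoter (chr1:171558943-171559192, + strand): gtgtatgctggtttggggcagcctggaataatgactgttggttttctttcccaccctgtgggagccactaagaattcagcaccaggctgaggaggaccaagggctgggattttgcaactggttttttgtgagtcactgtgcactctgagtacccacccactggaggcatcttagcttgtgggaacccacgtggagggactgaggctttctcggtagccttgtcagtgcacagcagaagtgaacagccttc
Slamf1 held the ETS hexamer at position -49, Cd48 held the RUNX hexamer at position -76, and the Cd244 window held none of the 3. Of the 27025 promoters in the table, in windows of the same length, 29.2% held the ETS hexamer, 14.2% the RUNX hexamer and 10.3% the GATA hexamer. Cd34 and Cd27 are on different chromosomes, and their levels were the most alike among the 8 genes, so their promoters are set side by side.
Cd34 promoter (chr1:194938571-194938820, + strand): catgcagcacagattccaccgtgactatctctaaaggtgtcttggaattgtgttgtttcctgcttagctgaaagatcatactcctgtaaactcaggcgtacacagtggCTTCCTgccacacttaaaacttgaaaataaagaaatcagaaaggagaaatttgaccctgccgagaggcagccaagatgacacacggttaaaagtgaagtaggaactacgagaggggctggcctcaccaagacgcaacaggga
Cd27 promoter (chr6:125237028-125237277, - strand): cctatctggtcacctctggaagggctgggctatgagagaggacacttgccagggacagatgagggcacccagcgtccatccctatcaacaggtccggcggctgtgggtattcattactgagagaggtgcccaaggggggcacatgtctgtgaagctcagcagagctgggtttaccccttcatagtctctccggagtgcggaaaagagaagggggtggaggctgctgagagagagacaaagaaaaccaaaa
Cd34 held the ETS hexamer on the - strand at position -142, and the Cd27 window held none of the 3 hexamers. Promoters were found for 7 of the 8 genes. The match of a hexamer is a description of the letters only.

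Total counts ran from 3551908 to 8492759 per library, with 3827 to 15697 genes detected. Of the 4465 pairs of libraries, 6 pairs (12 libraries) had nearly the same counts, with a chi-square per degree of freedom of 1.24 to 4.50, while the next pair had 15.1 and the median pair 119. Of the 6 pairs, 4 joined libraries of different populations: replicate 5 of steady-state HPC-2 and replicate 2 of HPC-1 at 13 weeks, replicate 7 of steady-state HPC-2 and replicate 7 of steady-state HPC-1, replicate 2 of HPC-2 at 8 weeks and replicate 1 of HPC-1 at 5 weeks, and replicate 1 of HPC-2 at 13 weeks and replicate 1 of steady-state HSC. The other 2 pairs joined weeks of 1 population (HPC-2 at 4 and 5 weeks, HPC-1 at 8 and 10 weeks). A further property of 12 libraries was fewer than 10000 detected genes, among them 4 of the 7 HPC-2 and 3 of the 8 HSC libraries at steady state. Results that rest on such libraries are given with and without them. Stem cell genes (a list of 10 that includes Procr) had a median summed level of 627 CPM (counts scaled to the library total) in transplanted HSC, 248 CPM in HPC-2 and 161 CPM in HPC-1. Lymphoid-primed genes (8, with Cd48 among them) had 28.0, 492 and 1915 CPM in the same order, and in HPC-2 Cd48 itself had a median of 483 CPM. The 8 megakaryocyte and myeloid-primed genes taken as HPC-2 markers had 2424 CPM in HSC, 4278 CPM in HPC-2 and 5843 CPM in HPC-1, so they were not highest in the population they were listed for. For the lineage panel of the gate, 4 genes were found in the table. Their summed median was 139 CPM in HSC, 169 CPM in HPC-2 and 159 CPM in HPC-1 at steady state. Cd3e was at 0 in every steady-state library. After transplant the sums were 111, 138 and 170 CPM, and in HPC-1 all 4 were detected. Ptprc, taken for B220, is the gene of CD45 and is also on the list of progenitor markers used below. These sums therefore do not measure lineage cells alone.

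Fold changes are on the log2 scale with their standard error (SE), from edgeR quasi-likelihood fits of all genes, and a gene was called at an adjusted p (Benjamini-Hochberg over all genes of the comparison) under 0.05. After transplant, 5 of the 8 genes were called in HSC against HPC-1, 1 higher and 4 lower, where 6% of the 11535 genes tested were called (2.86% higher, 3.14% lower). In HSC against HPC-2 it was 3 of 8, 2 higher and 1 lower, where 5.36% of all genes were called (2.87% higher, 2.49% lower). In HPC-2 against HPC-1 it was 5 of 8, 1 higher and 4 lower, where 4.86% were called (1.67% higher, 3.19% lower). At steady state 2 of 8 were called in HSC against HPC-1, both lower, where 0.573% of 11348 genes were called (0.132% higher, 0.441% lower). In HSC against HPC-2 it was again 2 of 8, both lower, where 1.33% were called (1.08% higher, 0.256% lower). In HPC-2 against HPC-1 it was 0 of 8, where 0.0264% were called (0.0176% higher, 0.00881% lower); 1 of 8 had an unadjusted p under 0.05 and DESeq2 called 1. Leaving out 1 library moved the steady-state count over all genes from 65 to between 7 and 121 in HSC against HPC-1, from 151 to between 4 and 590 in HSC against HPC-2, and from 3 to between 1 and 613 in HPC-2 against HPC-1, so these shares are unsteady. In the 12 comparisons of a transplant period with steady state or of late with early weeks, 0 of 88 tests of these genes were called. The groups differed in power (24 libraries against 7 or 8 per population), so the counts after transplant and at steady state are not comparable as counts.

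**Figure D1:**
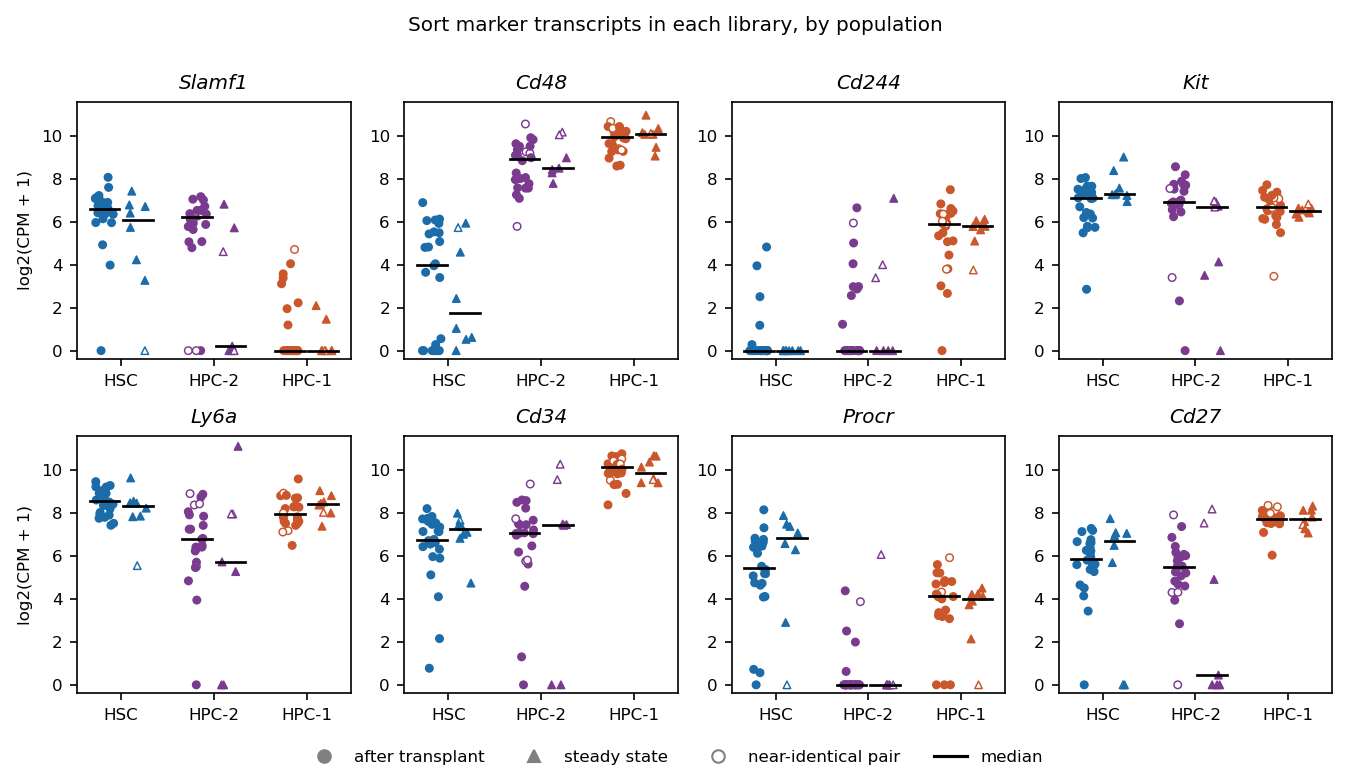
Level of each of the 8 sort marker genes in every library, as log2(CPM + 1), for HSC, HPC-2 and HPC-1, with transplanted libraries (circles) left of steady-state libraries (triangles). Open symbols are the 12 libraries of near-identical pairs and bars are medians; Cd48 and Cd34 of HSC lie below those of HPC-1 in every library, while Kit and Ly6a overlap after transplant.

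Slamf1, whose product CD150 defines the stem cell gate, was high in HSC, nearly as high in transplanted HPC-2 and near 0 in HPC-1. After transplant it ran from 0 to 268 CPM in HSC (median 95.4), from 0 to 143 CPM in HPC-2 (median 73.1) and from 0 to 25.2 CPM in HPC-1 (median 0). In HPC-1 it was at 0 in 16 of 24 libraries, and 22 of 24 HSC and 21 of 24 HPC-2 libraries were above every HPC-1 library. Slamf1 was higher in HSC than in HPC-1 by 5.64 ± 0.82 (SE; adjusted p = 3.2e-07) and higher in HPC-2 than in HPC-1 by 4.98 ± 0.80 (adjusted p = 6.05e-06). HSC and HPC-2 overlapped, with a difference of 0.66 ± 0.64 (95% interval -0.59 to 1.90, adjusted p = 0.631).

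At steady state Slamf1 had 0, 104, 83.8, 109, 171, 8.67, 52.4 and 17.8 CPM in the 8 HSC libraries, 0, 112, 0.155, 51.7, 23.4, 0 and 0 CPM in the 7 HPC-2 libraries and 0 to 3.28 CPM in HPC-1. The HSC library at 0 is replicate 1, which has nearly the same counts as an HPC-2 library of 13 weeks that is also at 0. Without the near-identical libraries every HSC library (8.67 CPM or more) was above every HPC-1 library. The HSC to HPC-1 difference was 6.71 ± 1.94 with an adjusted p of 0.17, and it was called without the libraries under 10000 genes (6.99, adjusted p = 0.00745) and by DESeq2. HPC-2 was the uneven population: only 3 of its 7 libraries were above the highest HPC-1 library. Its difference from HPC-1 was 5.37 ± 1.84 (adjusted p = 0.259, and 0.0238 by DESeq2). Without both the near-identical libraries and those under 10000 genes, 1 HPC-2 library remained, the one at 112 CPM.

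Cd48, the ligand of CD244 and the protein whose absence marks the stem cell gate, did not overlap between HSC and either progenitor population at steady state. At steady state it had 52.1, 0, 1.05, 4.39, 23.004, 0.531, 60.2 and 0.439 CPM in HSC, against 504, 360, 344, 220, 1157, 310 and 1061 CPM in HPC-2 and 534 to 2000 CPM (median 1095) in HPC-1. Every HSC library lay below every progenitor library. HSC were lower than HPC-1 (log2 fold change -6.07 ± 1.00, adjusted p = 0.0037) and lower than HPC-2 (log2 fold change -4.97 ± 0.96, adjusted p = 0.0251). The call against HPC-2 was lost without HSC steady state replicate 4 or replicate 6. It was also lost when the fit took the replicate number or the description number as a block. Leaving out both the near-identical libraries and those under 10000 genes, a choice made after the data were seen, leaves 1 HPC-2 library.

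After transplant Cd48 ran from 0 to 118 CPM in HSC (median 15.0), from 54.2 to 1506 CPM in HPC-2 (median 483) and from 387 to 1627 CPM in HPC-1 (median 979). HSC again did not overlap HPC-1, and the differences were -5.41 ± 0.57 from HPC-1 (adjusted p = 3.24e-11) and -4.22 ± 0.54 from HPC-2 (adjusted p = 5.48e-08). The lowest HPC-2 library, at 54.2 CPM, is the one paired with an HSC library. Without the near-identical libraries HPC-2 started at 136 CPM, and HSC and HPC-2 no longer overlapped. HPC-2 averaged 490 ± 341 CPM and HPC-1 964 ± 352 CPM (SD, n = 24 each), a difference of -1.18 ± 0.49 that was not called (adjusted p = 0.209).

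Mast cells and basophils also carry CD48, and the summed level of 7 of their genes followed the same order, with medians of 37.6 CPM in transplanted HSC (range 0 to 122), 145 CPM in HPC-2 (3.39 to 1322) and 391 CPM in HPC-1 (180 to 1598). Ms4a2, Gzmb, Prss34 and Cma1 of that list were at 0 in every transplanted HSC library and Prss34 in every HPC-2 library. The order was not particular to this list. The monocyte and macrophage genes had transplanted medians of 3.07 CPM in HSC, 19.7 CPM in HPC-2 and 48.1 CPM in HPC-1. The T cell, B cell, neutrophil, erythroid, megakaryocyte and platelet, and endothelial and stromal lists had other orders. The part of any of these cells in the Cd48 difference was not tested. In bulk libraries, fewer cells that express a gene and less RNA per cell cannot be told apart.

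**Figure D2:**
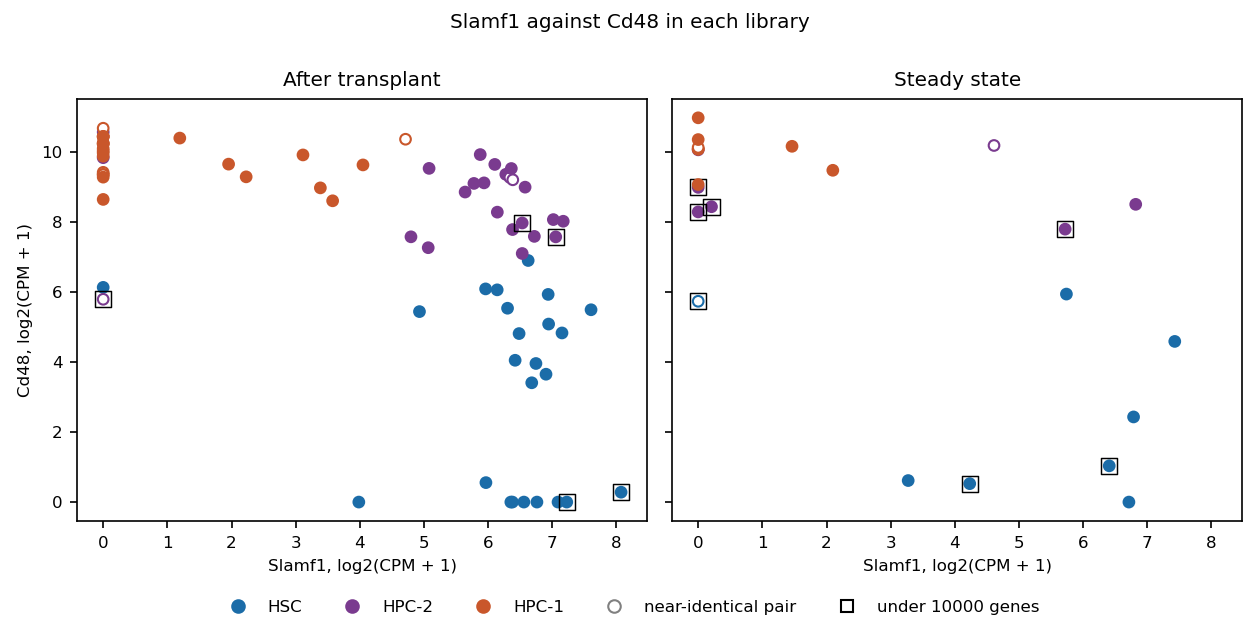
Slamf1 against Cd48 in each library, as log2(CPM + 1), after transplant (left) and at steady state (right). HSC lie at low Cd48, HPC-1 at high Cd48 with Slamf1 near 0, and transplanted HPC-2 mostly at high values of both. At steady state most HPC-2 libraries lie at low Slamf1. Open symbols are near-identical pairs and squares mark libraries under 10000 genes.

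Taken library by library, the pair of transcripts followed the protein definitions of the 3 populations in most cases. With cutoffs of 10 CPM for Slamf1 and 200 CPM for Cd48, set after the values were seen, 29 of 32 HSC libraries were Slamf1-high and Cd48-low and 3 were low for both. Of the 31 HPC-2 libraries 19 were high for both, 5 were Slamf1-high and Cd48-low, 6 were Slamf1-low and Cd48-high, and 1 was low for both. Of the 32 HPC-1 libraries 29 were Slamf1-low and Cd48-high and 3 were high for both. The plot of Slamf1 against Cd48 shows that 4 of the 6 HPC-2 libraries with the HPC-1 pattern were at steady state, and the 5 with the HSC pattern were all transplanted. The 4 are replicates 1, 3 and 6, each under 10000 genes, and replicate 7, the near-identical partner of an HPC-1 library. The 5 include 13 weeks replicates 2 and 3 and 16 weeks replicates 1 and 3, with 10066, 10215, 4903 and 10375 detected genes. The part of library quality in these patterns was not tested.

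Cd244, the receptor of CD48, was a transcript of HPC-1. At steady state it had 65.2, 33.4, 62.1, 68.4, 54.3, 48.4, 12.5 and 54.0 CPM in the 8 HPC-1 libraries and 0 counts in all 8 HSC libraries. Against a floor of 3 counts over the summed totals of the 8 HSC libraries (0.0681 CPM), the HPC-1 mean was 731-fold higher. That fold rests on read depth alone and is no bound for HSC after transplant. Transplanted HSC averaged 2.00 CPM of Cd244, against 58.0 CPM for transplanted HPC-1. Of the 8 steady-state HSC libraries, replicates 1, 3 and 8 had only 8091, 7779 and 8590 detected genes. The fitted value, -11.20 ± 2.17 (adjusted p = 0.0245), depends on the prior count of the fit and is no bound. The call was lost when any 1 of 7 libraries was left out: HSC replicates 2, 4, 5 and 7 and HPC-1 replicates 2, 4 and 6. It was also lost with a block by description number, but not with a block by replicate number. The lowest HPC-1 value, 12.5 CPM, is that of replicate 7, which is nearly identical to an HPC-2 library with 15.0 CPM.

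In steady-state HPC-2, Cd244 had 0, 0, 0, 0, 9.52, 136 and 15.0 CPM. The 3 libraries with counts were replicates 5 and 7, which are near-identical to HPC-1 libraries, and replicate 6, which had fewer than 10000 genes. HSC were called lower than HPC-2 (log2 fold change -9.73 ± 2.06, adjusted p = 0.0361). The call was lost when any 1 of 12 libraries was left out, and with a block by either number. Without both sets of libraries 1 HPC-2 library remained, with 0 counts, and no comparison could be made. After transplant Cd244 was detected in 5 of 24 HSC libraries (0 to 27.4 CPM), in 9 of 24 HPC-2 libraries (0 to 99.6 CPM) and in 23 of 24 HPC-1 libraries (0 to 180 CPM, median 59.0). HSC were lower than HPC-1 (log2 fold change -6.59 ± 1.25, adjusted p = 0.000103), and HPC-2 were lower than HPC-1 (log2 fold change -4.51 ± 1.24, adjusted p = 0.0154). HSC and HPC-2 overlapped, with 19 of 24 HSC and 15 of 24 HPC-2 libraries at 0, and the difference was not called (log2 fold change -2.08 ± 1.18, adjusted p = 0.343). The call of HPC-2 against HPC-1 was lost without HSC 8 weeks replicate 1 (the highest HSC library, at 27.4 CPM), and its adjusted p was 0.0506 without the near-identical libraries.

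Kit and Ly6a, whose products all 3 populations are sorted to carry, overlapped between HSC and HPC-1 after transplant. Transplanted libraries had 132 ± 69.6 CPM of Kit in HSC, 146 ± 89.0 CPM in HPC-2 and 109 ± 46.1 CPM in HPC-1 (SD, n = 24 each), and the ranges overlapped. The differences in Kit were 0.27 ± 0.33 for HSC against HPC-1 (95% interval -0.37 to 0.91) and -0.11 ± 0.33 for HSC against HPC-2 (-0.76 to 0.54), with adjusted p of 0.755 and 0.897. At steady state Kit had 158, 122, 149, 153, 153, 334, 189 and 517 CPM in HSC, 0, 105, 16.6, 10.4, 102, 120 and 125 CPM in HPC-2 and 73.1 to 113 CPM in HPC-1. All 8 HSC libraries were above all 8 HPC-1 libraries, and 7 of 8 were above every HPC-2 library. The HPC-2 library at 125 CPM is of a near-identical pair, and without those pairs all 7 HSC libraries were above both progenitor populations. Neither difference was called (1.22 ± 0.72, adjusted p = 1, and 1.75 ± 0.76, adjusted p = 0.454), but Kit was called in HSC against HPC-1 without the libraries under 10000 genes. The 3 HPC-2 libraries under 20 CPM are replicates 1, 3 and 4, each with fewer than 10000 genes.

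Ly6a set transplanted HPC-2 apart from HSC. It ran from 172 to 705 CPM in HSC (median 377), from 0 to 479 CPM in HPC-2 (median 111) and from 89.1 to 769 CPM in HPC-1 (median 245). HSC exceeded HPC-2 by 1.46 ± 0.33 (adjusted p = 0.00205), with 8 of 24 HSC libraries above every HPC-2 library. HSC and HPC-1 differed by 0.53 ± 0.31 (95% interval -0.07 to 1.14, adjusted p = 0.39). HPC-2 against HPC-1 was -0.92 ± 0.32 and missed the threshold (adjusted p = 0.0792), but passed it by DESeq2 (adjusted p = 0.00275), with another scaling (0.0162) and without the near-identical libraries (0.0174). At steady state HPC-2 had 2207, 51.9, 37.7, 0, 248, 0 and 248 CPM of Ly6a, so its mean of 399 CPM rested on replicate 1, a library under 10000 genes. HSC (45.9 to 796 CPM) and HPC-1 (166 to 527 CPM) overlapped, with means of 335 ± 214 and 338 ± 114 CPM (SD, n = 8 each).

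**Figure D3:**
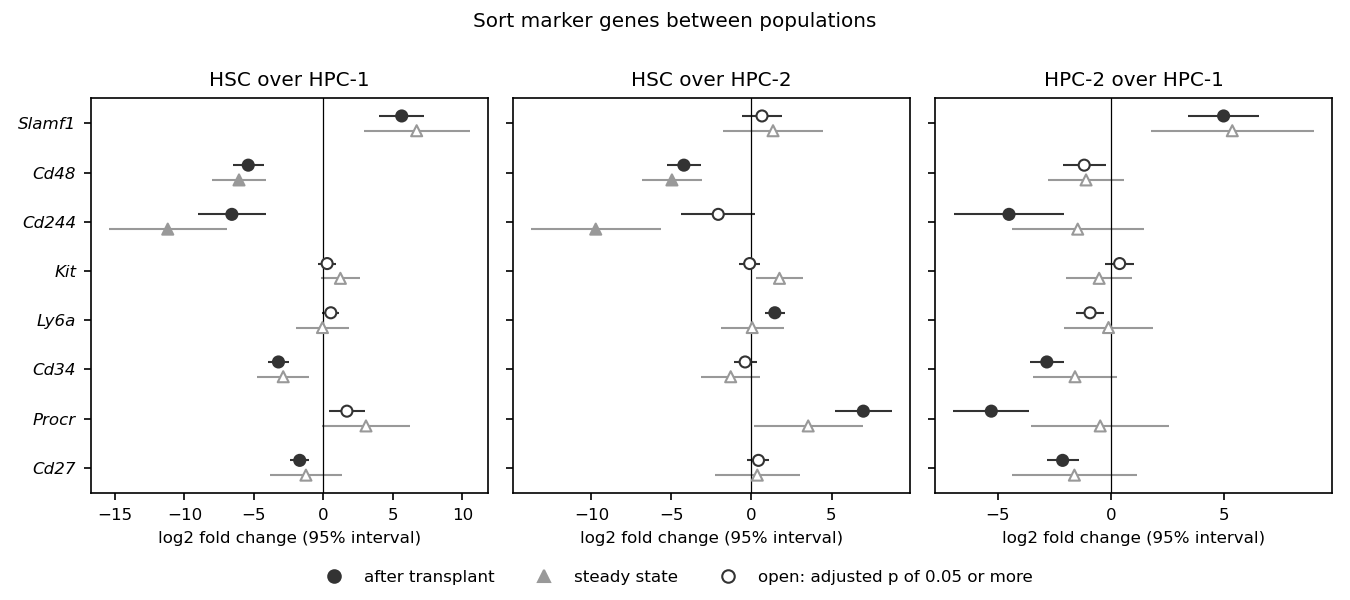
Log2 fold change with its 95% interval for the 8 genes in HSC over HPC-1, HSC over HPC-2 and HPC-2 over HPC-1, after transplant (circles) and at steady state (triangles). Filled symbols passed an adjusted p of 0.05: 5, 3 and 5 genes after transplant and 2, 2 and 0 at steady state.

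Cd34 and Cd27 were both highest in HPC-1. Cd34 averaged 122 ± 76.2 CPM in transplanted HSC, 174 ± 151 CPM in HPC-2 and 1098 ± 360 CPM in HPC-1 (SD, n = 24 each). The highest HSC library, at 295 CPM, was below the lowest HPC-1 library, at 332 CPM. HSC were lower than HPC-1 (log2 fold change -3.23 ± 0.39, adjusted p = 1.87e-09) and HPC-2 were lower (log2 fold change -2.84 ± 0.39, adjusted p = 1.45e-07), while HSC and HPC-2 differed by -0.40 ± 0.37 (95% interval -1.11 to 0.32, adjusted p = 0.608). Cd27 averaged 66.8 ± 42.4 CPM in transplanted HSC, 56.5 ± 53.3 CPM in HPC-2 and 217 ± 54.1 CPM in HPC-1. Its differences were smaller but had the same form, at -1.70 ± 0.35 for HSC against HPC-1 (adjusted p = 0.000354), -2.14 ± 0.36 for HPC-2 against HPC-1 (adjusted p = 1.34e-05) and 0.44 ± 0.35 for HSC against HPC-2 (adjusted p = 0.541).

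At steady state Cd34 had 201, 254, 112, 164, 177, 136, 128 and 25.7 CPM in HSC, against 679 to 1632 CPM (median 950) in HPC-1. The groups did not overlap, yet the difference of -2.89 ± 0.96 was not called (adjusted p = 0.37) until the libraries under 10000 genes were left out (-2.74, adjusted p = 0.00108). In HPC-2 the same gene had 0, 176, 179, 171, 1240, 0 and 754 CPM. The 2 highest values are those of replicates 5 and 7, the near-identical partners of HPC-1 libraries with 1248 and 753 CPM, and the other 5 were below every HPC-1 library. Cd27 behaved likewise in HPC-2, with 0, 29.1, 0, 0, 291, 0.370 and 185 CPM, and HPC-1 ran from 134 to 320 CPM. Without the near-identical libraries Cd27 was called lower in HPC-2 than in HPC-1 (-5.27, adjusted p = 0.0398), and with all libraries it was not (-1.62 ± 1.40, adjusted p = 0.921).

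Procr was highest in HSC and at 0 in most HPC-2 libraries, while HSC and HPC-1 overlapped. After transplant it ran from 0 to 283 CPM in HSC (median 42.7), from 0 to 19.8 CPM in HPC-2 and from 0 to 59.6 CPM in HPC-1 (median 16.9). HPC-2 were at 0 in 19 of 24 libraries, HSC in 1 and HPC-1 in 3. Procr was higher in HSC than in HPC-2 by 6.99 ± 0.91 (adjusted p = 6.45e-08) and lower in HPC-2 than in HPC-1 (log2 fold change -5.29 ± 0.86, adjusted p = 7.3e-06). The HSC to HPC-1 difference of 1.69 ± 0.67 was not called (95% interval 0.39 to 3.00, adjusted p = 0.134), but it was called with no low-count filter. In weeks 10 to 16 all 9 HPC-2 libraries were at 0 and HSC averaged 85.9 ± 82.5 CPM. That is 1683-fold above a floor of 3 counts pooled over those 9 libraries. It is no bound for all transplanted libraries, where the means were 65.4 CPM in HSC and 1.74 CPM in HPC-2. Of the 9, 13 weeks replicate 1 and 16 weeks replicates 1 and 2 had only 8105, 4903 and 7563 detected genes. The first is near-identical to a steady-state HSC library also at 0. The HSC mean includes the library at 283 CPM, 13 weeks replicate 2, with 6628 detected genes.

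At steady state Procr had 0, 178, 6.50, 165, 235, 94.6, 77.4 and 134 CPM in HSC, 0 to 21.7 CPM (median 15.2) in HPC-1, and 66.1 CPM in HPC-2 replicate 5 with 0 in the other 6 HPC-2 libraries. That replicate is the near-identical partner of HPC-1 13 weeks replicate 2, which had 59.6 CPM. With it, HSC against HPC-2 was 3.54 ± 1.74 (adjusted p = 0.567). Without the near-identical libraries all 5 HPC-2 libraries were at 0, and Procr was called in HSC against HPC-2 (adjusted p = 0.000182) and in HPC-2 against HPC-1 (adjusted p = 0.00109). Of those 5, 4 had fewer than 10000 genes, and 1574 and 1544 of all 11938 genes tested were called in the same comparisons. Between HSC and HPC-1 Procr was not called with all libraries, nor without the near-identical ones (3.06 ± 0.86, adjusted p = 0.135). It was called without both the near-identical libraries and those under 10000 genes, a choice made after the data were seen.

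Per kilobase of exon, over all libraries of a population, the order of the 8 transcripts differed. In HSC the level of Ly6a was highest, at 315 ± 140 CPM per kb (SD, n = 32), followed by Procr at 37.9 ± 34.4, Cd27 at 31.5 ± 22.3, Cd48 at 20.8 ± 25.0, Cd34 at 17.7 ± 10.2, Kit at 17.3 ± 10.8 and Slamf1 at 15.0 ± 9.33 CPM per kb, neighbours that lie within the spread of each other, and Cd244 was lowest at 0.308 ± 1.11 CPM per kb. In HPC-2 and HPC-1 the highest level was that of Cd48, at 427 ± 291 CPM per kb (n = 31) and 843 ± 314 CPM per kb (n = 32). Ly6a was second in both, at 184 ± 327 and 251 ± 117 CPM per kb. Last in HPC-2 was Procr at 1.71 ± 6.10 CPM per kb, and last in HPC-1 was Slamf1 at 0.415 ± 0.910 CPM per kb.

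Over the weeks after transplant, no change in the 8 transcripts passed the test. None of the 8 genes was called in weeks 3 to 4, 5 to 8 or 10 to 16 against steady state, or in weeks 10 to 16 against 3 to 4, in any of the 3 populations. Of the 88 tests 6 had an unadjusted p under 0.05, and DESeq2 called 0. Few genes of any kind were called here: in HSC 0.0319% of 12541 genes at weeks 3 to 4, 0.0239% at weeks 5 to 8, 0% at weeks 10 to 16 and 0.136% in late against early weeks, in HPC-1 0.0162% of 12364 at weeks 3 to 4 and 0% in the other 3 comparisons, and in HPC-2 0% of 11885 in each. Cd244 in HSC and Procr in HPC-2 were too low to be tested. These comparisons of a population share its 7 or 8 steady-state libraries. On simulated counts, the test of HSC weeks 3 to 4 against steady state recovered 8% of 4-fold and 27% of 16-fold changes. A missing call therefore does not show an unchanged level.

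Of the 88 tests, the lowest unadjusted p was that of Kit in HSC. Kit averaged 222 ± 136 CPM at steady state (n = 8), 77.2 ± 51.4 CPM in weeks 3 to 4 (n = 6), 115 ± 59.3 CPM in weeks 5 to 8 and 186 ± 53.5 CPM in weeks 10 to 16 (n = 9 each; SD). Week by week it had 71.3, 6.25 and 164 CPM at 3 weeks and 54.6, 81.5 and 85.5 CPM at 4 weeks, while every steady-state library had at least 122 CPM. Only 1 of the 6 early libraries reached the steady-state range. The difference was -1.52 ± 0.48 for weeks 3 to 4 against steady state (adjusted p = 0.29) and 1.34 ± 0.46 for weeks 10 to 16 against weeks 3 to 4 (adjusted p = 0.225), so neither was called over all genes. In HPC-2 the same gene averaged 68.4 ± 56.3 CPM at steady state and 175 ± 69.4, 122 ± 67.4 and 150 ± 118 CPM in the 3 periods, with 3 low steady-state libraries as above. The difference in transplant effect on Kit between HSC and HPC-2 was -1.84 ± 0.71 (adjusted p = 0.146), and it was called without the near-identical libraries (-2.55, adjusted p = 0.0376), but was -0.90 without those under 10000 genes (adjusted p = 0.687).

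Procr in HSC averaged 111 ± 82.9 CPM at steady state and 38.5 ± 25.0, 62.9 ± 55.7 and 85.9 ± 82.5 CPM in the 3 periods. The early weeks were lowest, with 85.3, 35.1 and 16.3 CPM at 3 weeks and 45.0, 25.5 and 23.9 CPM at 4 weeks, but they lay within the steady-state range of 0 to 235 CPM. The difference of weeks 3 to 4 from steady state was -1.54 ± 1.07 (adjusted p = 0.849). Slamf1 in HSC averaged 68.4 ± 59.5 CPM at steady state and 123 ± 43.5, 84.5 ± 30.8 and 100.6 ± 78.2 CPM in the 3 periods, with adjusted p of 0.951 or more. Cd48 in HSC averaged 17.7 ± 25.0 CPM at steady state and 25.2 ± 26.0, 40.6 ± 38.8 and 14.8 ± 22.3 CPM in the 3 periods, with adjusted p of 0.944 or more.

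**Figure D4:**
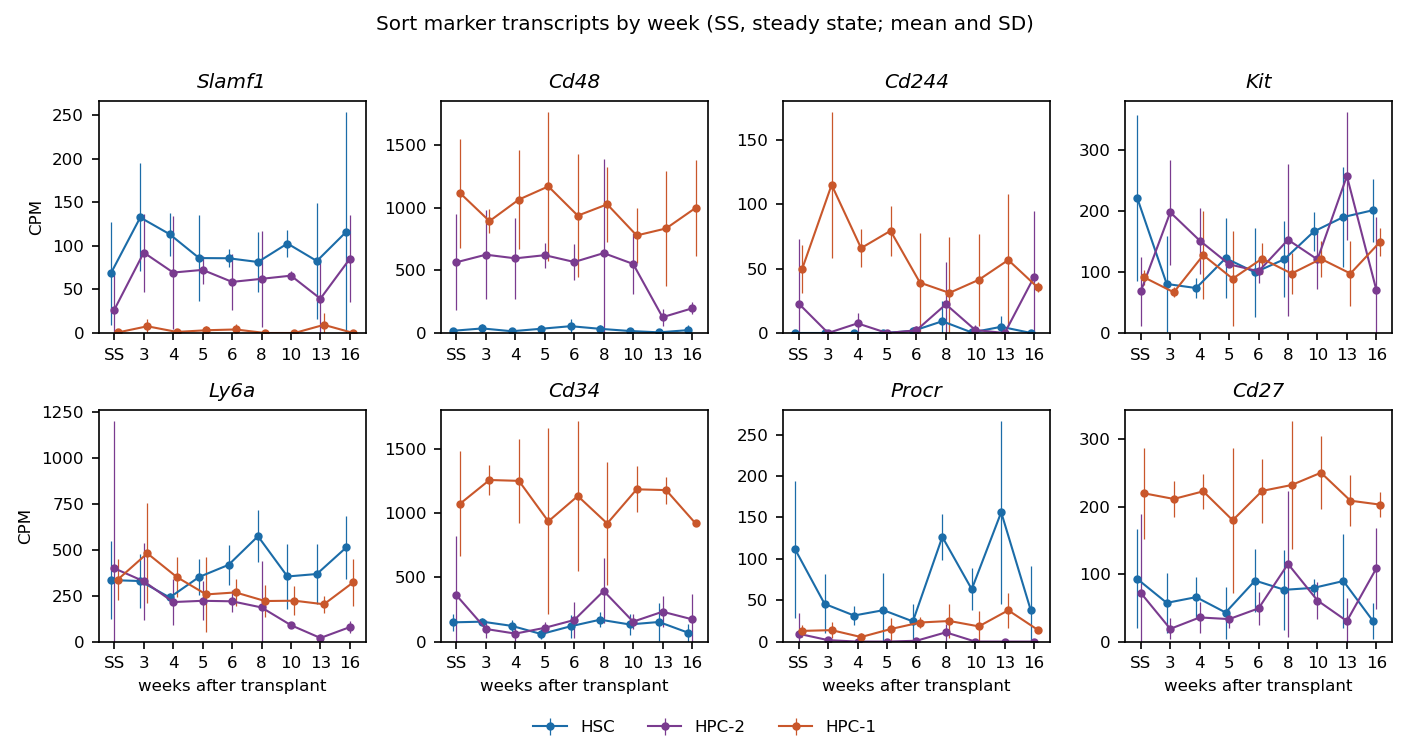
Mean level in CPM of each of the 8 genes in HSC, HPC-2 and HPC-1 at steady state (SS) and at each week after transplant; bars are 1 SD over 3 libraries per week and 7 or 8 at steady state, drawn no lower than 0. Kit in HSC is lowest at 3 and 4 weeks, and Cd48 and Ly6a in HPC-2 are lowest at 13 and 16 weeks.

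In HPC-2, the mean levels of Ly6a and Cd48 were lowest at 13 and 16 weeks. The 6 libraries of those weeks had 4903 to 10375 detected genes, 3 of them under 10000, while every earlier transplanted HPC-2 library had at least 11131. The part of this in the levels was not tested. Ly6a averaged 399 ± 805 CPM at steady state, 272 ± 166 CPM in weeks 3 to 4, 209 ± 142 CPM in weeks 5 to 8 and 62.6 ± 39.6 CPM in weeks 10 to 16. The late libraries had 84.4, 74.4 and 109 CPM at 10 weeks, 44.4, 0 and 14.4 CPM at 13 weeks and 81.4, 112 and 43.1 CPM at 16 weeks. The differences of weeks 10 to 16 were -2.34 ± 1.05 from steady state (adjusted p = 0.548) and -2.27 ± 1.07 from weeks 3 to 4 (adjusted p = 1). The first was -0.82 without steady-state replicate 1 (2207 CPM; the steady-state median was 51.9 CPM), and turned to 0.14 without both the near-identical libraries and those under 10000 genes, which leaves 1 steady-state library of 51.9 CPM. Cd48 in HPC-2 averaged 565 ± 382 CPM at steady state and 611 ± 303, 609 ± 387 and 292 ± 236 CPM in the 3 periods, with 54.2, 136 and 189 CPM at 13 weeks and 189, 248.9 and 152 CPM at 16 weeks. Late against early weeks was -1.18 ± 0.53 (adjusted p = 1). Ly6a in HPC-1 averaged 416 ± 199 CPM in weeks 3 to 4 and 250 ± 97.0 CPM in weeks 10 to 16, a difference of -0.70 ± 0.33 (adjusted p = 0.999).

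In HPC-1, where Cd34 and Cd27 were highest, neither was called over time. Cd34 averaged 1073 ± 408 CPM at steady state and 1254 ± 219, 996 ± 533 and 1095 ± 167 CPM in the 3 periods, and Cd27 averaged 220 ± 67.3 CPM at steady state and 217 ± 24.6, 212 ± 79.4 and 221 ± 40.9 CPM. For Cd27 the 3 differences from steady state were -0.15 ± 0.22, -0.09 ± 0.20 and -0.08 ± 0.20, with adjusted p of 0.879 or more.

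Whether transplant acted differently on the 3 populations was asked of all 95 libraries. None of the 8 genes was called in HSC minus HPC-1 (0% of 14351 genes), HSC minus HPC-2 (2.03%) or HPC-2 minus HPC-1 (0.105%), 3 of 24 tests had an unadjusted p under 0.05, and DESeq2 called 2, both for Cd244. The Cd244 differences were 6.53 ± 2.24 for HSC minus HPC-1 (adjusted p = 0.338) and 7.49 ± 2.32 for HSC minus HPC-2 (adjusted p = 0.0583), and they rest on a steady-state HSC group at 0. The second turned to -0.83 without both the near-identical libraries and those under 10000 genes. Without the near-identical libraries alone, Cd27, Procr, Kit and Cd244 were called in HSC minus HPC-2, and Cd27 and Procr in HPC-2 minus HPC-1, where steady-state HPC-2 had 0 CPM of Procr and 5.88 ± 13.0 CPM of Cd27 (SD, n = 5). In that setting 1250 and 1062 of all 14895 genes tested were called. None of the 8 genes was called without the libraries under 10000 genes, or without both sets.

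The pathways around these genes were followed in lists of their partners and relatives. After transplant 6% of all genes tested were called in HSC against HPC-1, 5.36% in HSC against HPC-2 and 4.86% in HPC-2 against HPC-1. The lists are small beside these shares. Of the 6 other SLAM receptor genes, 2 could be tested after transplant and 1 was called: Ly9 was lower in HSC than in HPC-1 (-3.48 ± 1.06, adjusted p = 0.0322) and lower in HPC-2 than in HPC-1 (-3.53 ± 1.10, adjusted p = 0.0421). Ly9 averaged 4.14 ± 8.99 CPM in HSC, 6.60 ± 18.1 CPM in HPC-2 and 20.2 ± 18.0 CPM in HPC-1, the order of its neighbour Cd244, with which it overlaps. Of 8 SLAM adaptor and effector genes 5 were tested after transplant, and Ptpn6, a phosphatase, was called lower in HSC than in HPC-1 (-1.20 ± 0.37, adjusted p = 0.0383). The list's median change there was -1.20, against -0.11 over all genes tested.

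Of 15 genes of KIT ligand and signalling, 14 were tested after transplant. In HSC against HPC-2, Pik3r1, a regulatory subunit of PI3 kinase, was higher (1.36 ± 0.41, adjusted p = 0.0313) and Grb2, an adaptor, was lower (-0.92 ± 0.22, adjusted p = 0.00551). In HPC-2 against HPC-1, Sh2b3, an inhibitor of KIT signalling, was lower (-2.07 ± 0.52, adjusted p = 0.00596), and in HSC against HPC-1 0 of 14 were called. Over all genes 5.36%, 4.86% and 6% were called in these comparisons, in the order given, so the calls of this list are near that share. Of the Ly6 family, 3 of 9 were tested, and Ly6d and Ly6e were lower in HSC than in HPC-1 (-7.66 ± 1.01, adjusted p = 2.81e-08, and -0.57 ± 0.11, adjusted p = 8.83e-05) and lower in HPC-2 than in HPC-1. Of 7 genes of the protein C receptor pathway 5 were tested, and the thrombin receptor F2r and its relative F2rl2 were higher in HSC than in HPC-1 (2.13 ± 0.39 and 3.95 ± 0.82, adjusted p = 5.11e-05 and 0.000447) and higher in HPC-2 than in HPC-1 (2.69 ± 0.39 and 4.00 ± 0.79). F2r had 183 ± 146 CPM in HSC and 282 ± 206 CPM in HPC-2, against 41.7 ± 36.9 CPM in HPC-1, so it was not low in HPC-2 as Procr was. Of 7 genes of the CD27 pathway 5 were tested and 0 were called in each of the 3 comparisons; Siva1, whose product binds the CD27 tail, had the highest mean among them, at 406 ± 142 CPM in HSC, 332 ± 132 CPM in HPC-2 and 321 ± 134 CPM in HPC-1.

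Other surface markers of stem cells and progenitors were counted in the same way. Of 15 further stem cell markers 13 were tested, and 5 were higher in transplanted HSC than in HPC-1, 0 were lower and 8 were not called, where 2.86% of all genes were higher and 3.14% lower. Cd9 (1.86 ± 0.15) and Jam3 (6.85 ± 1.17) had the smallest p among them. In HSC against HPC-2 it was 3 of 13, Jam3 (5.93 ± 1.14), Cd9 (0.58 ± 0.15) and Alcam, and in HPC-2 against HPC-1 4 were higher, with Cd9 (1.28 ± 0.15) and Itga2b (3.14 ± 0.56) first, and 1 was lower. Over all genes 2.87% were higher and 2.49% lower in HSC against HPC-2, and 1.67% and 3.19% in HPC-2 against HPC-1. Cd9 averaged 835 ± 233 CPM in HSC, 589 ± 234 CPM in HPC-2 and 230 ± 66.7 CPM in HPC-1. Of 13 progenitor markers 11 were tested, and 6 were lower in HSC than in HPC-1 and 7 lower in HPC-2 than in HPC-1, with 0 higher in each. Flt3, the receptor tyrosine kinase of lymphoid-primed progenitors, averaged 3.27 ± 6.85 CPM in HSC, 8.91 ± 20.1 CPM in HPC-2 and 188 ± 98.9 CPM in HPC-1, with differences of -7.27 ± 0.96 and -5.88 ± 0.93 from HPC-1. At steady state only Cd9 (1.81 ± 0.37, adjusted p = 0.0245) was called in HSC against HPC-1 among the stem cell markers and Il7r, with 0 counts in all 8 HSC libraries, among the progenitor markers, and Jam2 in HSC against HPC-2. Over all genes 0.573% were called there in HSC against HPC-1 and 1.33% in HSC against HPC-2.

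The genes whose levels ranked most like each of the 8 over the 95 libraries were named by Spearman correlation of log2(CPM + 1), as a description: all points share depth, library and population. For Cd48 they were Plac8 (rho 0.88), Cst7 (0.85) and Cpa3 (0.82), for Cd27 Emb (0.87), Tmem173 (0.85) and Limd2 (0.81), and for Cd34 H2afy (0.86), Gm10482 (0.82) and Emb (0.81). For Cd244 they were Cnn3 (0.79), Ldlrad4 (0.77) and Gm43305 (0.76), for Ly6a Ifitm3 (0.71), Ifitm1 and Hsbp1 (0.67 each), and for Slamf1 Snap23 (0.70), Nt5c3 and Nupr1 (0.67 each). Procr (Gm19590, 0.70, Lhcgr, 0.67, and Gstm2-ps1, 0.67) was close to these, and Kit (Kansl1, 0.60, Zbtb20, 0.59, and Cbfa2t3, 0.56) had the weakest. Among the 8 themselves, Cd34 ranked most like Cd27 (rho 0.79) and Cd244 (0.70), Slamf1 ran opposite to Cd48 (-0.69), and Ly6a was nearest to Procr (0.45). Kit had no correlation beyond 0.34 in size with any of the other 7, its extreme being Cd48 (-0.34).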

How the data were processed

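The deposited table holds raw counts per gene for the 95 libraries. Per the labels' protocols, complementary DNA was made with SMART-Seq v4 and libraries with Nextera XT. Per the submitters' processing notes, the authors used Trimmomatic 0.36, HISAT2 2.0.5, Picard and featureCounts with GRCm38 (mm10), with no roles stated. Neither the strand setting nor the annotation release is given in the sources used here. Groups follow the titles; 2 titles reading "10k" were placed at 10 weeks. Whether each library is its own animal is not labelled; p-values then cover only the spread among these samples, which may be technical. The 8 genes and all lists were chosen with earlier results of these data known.

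Levels are CPM over deposited totals; 3 counts equal 0.353 to 0.845 CPM. Genes kept by filterByExpr were scaled by TMM and tested with edgeR 4.0.16 (quasi-likelihood F test, Benjamini-Hochberg adjustment, threshold 0.05; R 4.3.3). Steady-state libraries were fitted with 1 mean per population, transplanted ones with week and population, each population with steady state and 3 periods, and all 95 with 6 groups for differences in transplant effect. SE come from the F statistic. Alternatives were RLE scaling, DESeq2 1.42.0, no filter, leaving out libraries, and replicate blocks. The procedure was tested on simulated counts, whose spread was taken over all libraries of a fit together. In HSC against HPC-1 after transplant it recovered 55% of 4-fold and 91% of 16-fold changes. In the same comparison at steady state it recovered 6% and 27%. For HSC weeks 3 to 4 against steady state it recovered 8% and 27%. All 8 genes are named; of each list, up to 3 genes with the smallest p among those called are named. Some genes of the lists are not reported here.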

Additional observations from a re-analysis of the deposited data

Results flagged for a closer look

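Over 96 combinations of gene, population and period, 17 had a library whose gap to the nearest other library took up more of the range than Dixon's 95% limit allows. Chance flags about 1 in 20 groups only where values are normally distributed. Many groups here held mostly values of 0, so the 17 cannot be set against that rate. All 17 were high values, and all the values below are in CPM.

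Of these, 5 were in libraries of near-identical pairs. In HPC-2 8 weeks replicate 2, the partner of an HPC-1 library, Cd48 had 1506, Cd244 60.5 and Cd27 240, against at most 735, 6.32 and 70.8 in the other libraries of weeks 5 to 8. In HPC-2 steady state replicate 5, the partner of another HPC-1 library, Procr had 66.1 against 0 in the other 6. In HPC-1 13 weeks replicate 2, the partner of that library, Slamf1 had 25.2 against at most 2.88 in weeks 10 to 16.

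A further 4 were in libraries under 10000 genes. Cd244 had 136 in HPC-2 steady state replicate 6 (the others at most 15.0) and 99.6 in HPC-2 16 weeks replicate 2 (the others at most 31.3). Ly6a had 2207 in HPC-2 steady state replicate 1 (the others at most 248). Procr had 283 in HSC 13 weeks replicate 2 (the others of weeks 10 to 16 at most 101.3).

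The other 8 were in libraries with neither property. In HSC, Cd244 had 27.4 in 8 weeks replicate 1 and 14.5 in 13 weeks replicate 3, Cd48 had 68.9 in 16 weeks replicate 2, and Ly6a had 796 in steady state replicate 7. In HPC-2, Procr had 4.68 in 3 weeks replicate 2. In HPC-1, Cd244 had 180 and Procr 24.9 in 3 weeks replicate 3, and Kit had 211 in 4 weeks replicate 3.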

How the results depend on the processing

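Over the processing alternatives, 223 values of single genes kept their direction and their side of the threshold, 21 newly passed it, 9 no longer passed it and 2 reversed: Ly6a in HPC-2 at weeks 10 to 16 against steady state (0.14) and the Cd244 difference in transplant effect, HSC minus HPC-2 (-0.83), both without the near-identical libraries and those under 10000 genes, a choice made after seeing the data. The cause was not tested. The count of the 8 genes called in HSC against HPC-1 at steady state was 2, but 5 without the libraries under 10000 genes, 5 without both sets, 1 with a replicate block by description number, and 1 to 2 with each library left out. In HSC against HPC-2 at steady state it was 2, but 1 with no filter, 0 with the replicate block by either number, and 0 to 3 with each library left out. The genes changed too: Procr was added without the near-identical libraries, and Cd34 without the libraries under 10000 genes. Without both sets, which leaves 1 HPC-2 library, neither Cd48 nor Cd244 was called. In HPC-2 against HPC-1 at steady state it was 0, but 1 by DESeq2, 2 without the near-identical libraries and 6 without both sets. For the differences in transplant effect it was 0, but by DESeq2 1 in HSC minus HPC-1 and 1 in HSC minus HPC-2; without the near-identical libraries it was 4 in HSC minus HPC-2 and 2 in HPC-2 minus HPC-1, and with each library left out it was 0 to 1 in HSC minus HPC-2. Of the 24 genes most like the 8 in rank, 12 were the same without both sets and 3 over the 27 group means. Whether replicate numbers pair the samples was not settled. Correlations of same-numbered deviations ran from -0.18 to 0.64, and no unmatched pairs were set beside them. In HSC and HPC-1 at steady state all 8 were positive, from 0.052 to 0.18. The block changed no call after transplant other than that of Ly6a in HPC-2 against HPC-1 (adjusted p = 0.0383). RLE scaling moved the median of all genes by up to -0.36 (HPC-2 weeks 5 to 8 against steady state) and changed 1 call of the 8 genes, the same one (adjusted p = 0.0162). Calls over all genes changed by over 1.5 times in 86 of 153 alternatives: in HPC-2 against HPC-1 at steady state the count was 3, but 258 by DESeq2 and 1544 without the near-identical libraries. A level under 0.353 to 0.845 CPM is below 3 counts.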
